A study of Mus musculus with 9 samples.

Results

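The 10 genes described here, Cdkn1a, Mdm2, Ccng1, Trp53inp1, Phlda3, Sesn2, Bbc3, Aen, Eda2r and Zmat3, are targets of the tumour suppressor p53, and they were taken by gene name from the 32137 genes counted in every library. They were selected on a measured value, the level of Cdkn1a, which was known to be lower at later passage in these same libraries, so all passage values below are descriptions without a test, while the comparisons between groups of cells were tested. RNA was sequenced in 9 libraries, each from cells sorted by fluorescence out of differentiated bile duct organoids of the mouse. All the organoids derived from 1 male animal of mixed genetic background with the genotype Axin2CreERT2+/-; R26-LSL-tdTom+/-, in which a tamoxifen-dependent Cre recombinase made under the control of the Wnt target gene Axin2 switches on the red reporter tdTomato. Expansion took 2 to 4 days, and differentiation then took 11 days. All of them received 3 uM dexamethasone, a synthetic glucocorticoid, and 500 nM 4-hydroxytamoxifen in the last 24 h. The untreated group was tdTomato-negative cells of organoids without added Rspo1 (R-spondin 1), a secreted agonist that strengthens Wnt signals. The Rspo1-negative and Rspo1-positive groups were the tdTomato-negative and tdTomato-positive cells of organoids given 100 ng/ml Rspo1 in the same 24 h. Each group had 3 libraries, 1 each at passages 5, 6 and 10, so p-values measure the spread between cultures of 1 animal, and passage cannot be told apart from the culture occasion.

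p53 is a transcription factor that is held at a low level by the ubiquitin ligase Mdm2 and accumulates after DNA damage and other stress. Its targets stop the cell cycle, trigger apoptosis, adjust metabolism and, through Mdm2, return p53 itself to a low level. In liver and bile duct, Cdkn1a is widely used as a readout of cell cycle arrest and of senescence. Much of p53's activity is set at the level of the protein, which was not measured here.

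Total counts ranged from 23423979 to 37351448 per library, and all 10 members passed the filter that left 17011 genes for testing. Levels are given as CPM, read counts scaled to a common library size, and differences as log2 values. The 5 bile duct markers Krt19, Krt7, Epcam, Sox9 and Spp1 were detected and summed to 5553 to 8590 CPM per library. Hepatocyte markers summed to 164 to 545 CPM, nearly all of it Ttr at 149 to 534 CPM, while Alb, which encodes albumin, had 3.91 to 15.3 CPM, Apoa1 had 0.196 to 1.57 CPM, and Cps1, Cyp3a11 and Serpina1a had 0 to at most 0.236 CPM. Leukocyte markers summed to 5.37 to 23.2 CPM, nearly all of it Cd68 at 5.3 to 23.0 CPM, while Ptprc and Cd3e had 0 to at most 0.133 CPM. Fibroblast markers summed to 0.133 to 0.892 CPM and endothelial markers to 0.0492 to 0.215 CPM. In RNA from a sorted population, fewer cells that express a gene and less RNA per cell cannot be told apart.

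At passage 10, all 10 members were lower than at passage 5 in each of the 3 groups. Cdkn1a, Eda2r and Ccng1 showed the widest differences and Mdm2 the narrowest. Among all genes tested, 27.2% were lower in all 3 groups and 29.1% were higher. The members' median difference between passages 10 and 5, fitted with group in the model, was -1.01, against 0.01 over all genes, 90% of which lay between -0.76 and 0.92. Because the rule used this contrast, nothing is read from these shares.

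**Figure D1:**
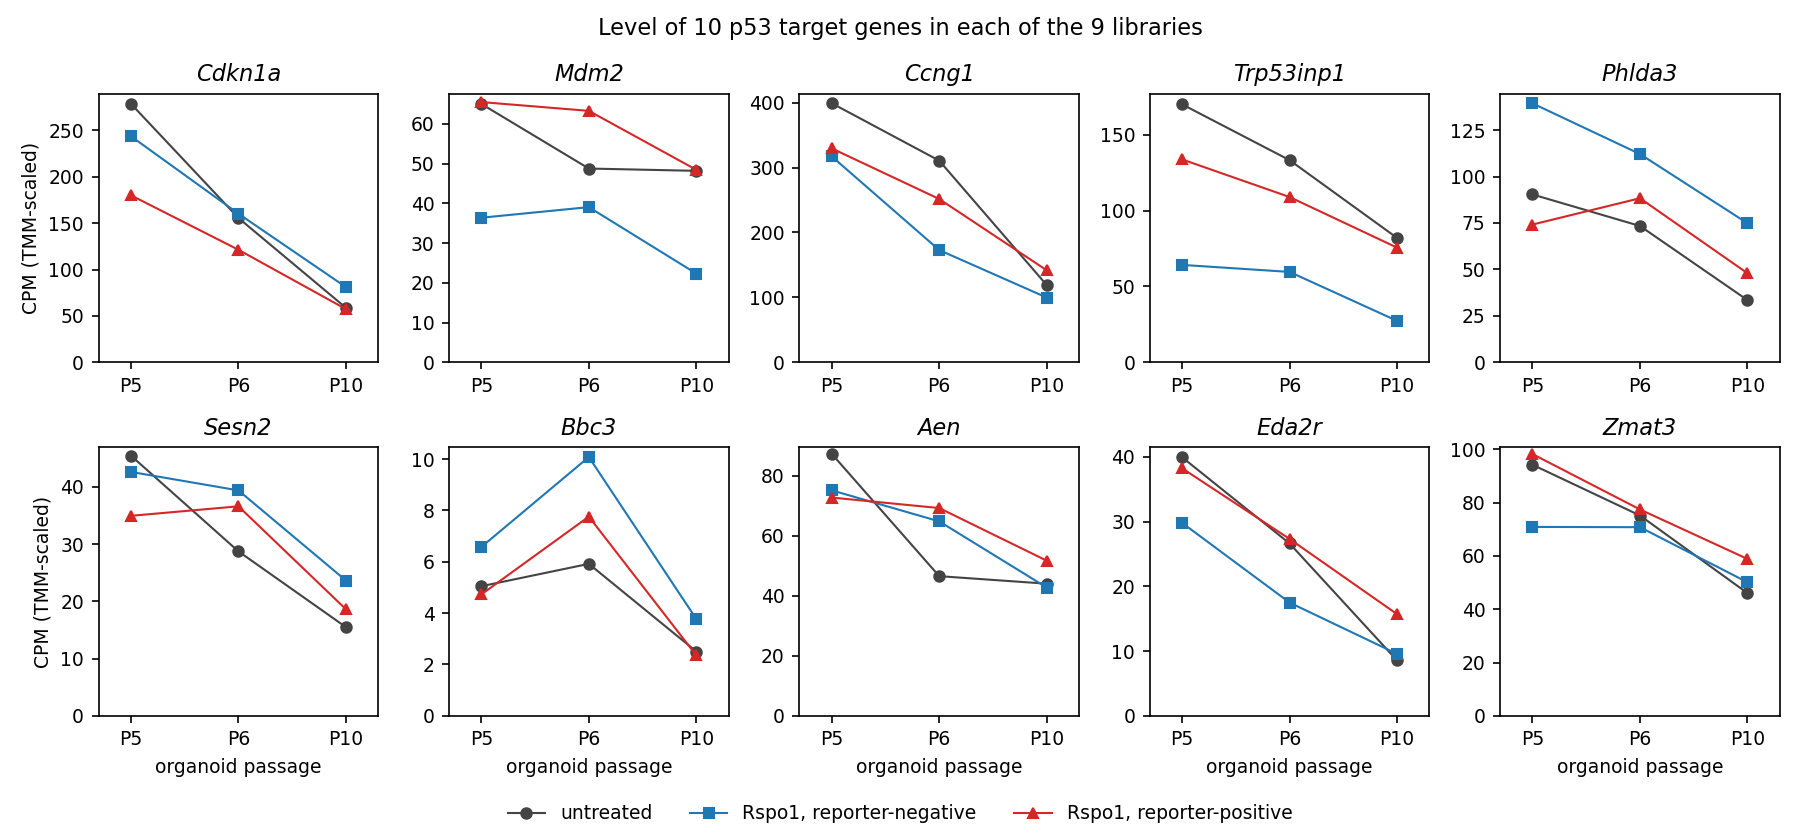
Each panel shows 1 member, with the CPM of every library (vertical axis from 0, its range set for each gene) at passages 5, 6 and 10 (evenly spaced, not to scale in time), and lines join the 3 libraries of a group. Cdkn1a, Ccng1 and Eda2r step down at each passage in all groups, Bbc3 peaks at passage 6, and the Rspo1-negative libraries of Mdm2 and Trp53inp1 lie below the others.

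The first members by role act on the cell cycle. Cdkn1a encodes p21, an inhibitor of cyclin-dependent kinases that halts cells before DNA replication. In untreated cells it stood at 279, 156 and 58.7 CPM at passages 5, 6 and 10. Rspo1-negative cells had 244, 160.2 and 81.0 CPM, and Rspo1-positive cells had 180.1, 121 and 57.3 CPM. All 3 libraries of passage 6 lay below the 3 of passage 5, and the 3 of passage 10 lay below those of passage 6. The passage 5 level was 4.75 times that of passage 10 in untreated, 3.01 times in Rspo1-negative and 3.14 times in Rspo1-positive cells, a mean log2 difference of -1.83 ± 0.36 (SD, n = 3 groups). Only 0.57% of the genes tested had a more negative difference.

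Ccng1 encodes cyclin G1, an atypical cyclin that takes part in the feedback between p53 and Mdm2. Its levels at passages 5, 6 and 10 were 399, 311 and 119 CPM in untreated cells. They were 317, 173 and 99.7 CPM in Rspo1-negative cells and 329.6, 252 and 142 CPM in Rspo1-positive cells. As for Cdkn1a, the libraries of the 3 passages did not overlap, and the mean difference between passages 10 and 5 was -1.54 ± 0.29 (SD, n = 3 groups).

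Mdm2, the ligase that marks p53 for degradation, differed least with passage among the members. Untreated cells held 65.0, 48.8 and 48.2 CPM at passages 5, 6 and 10, and Rspo1-positive cells held 65.5, 63.3 and 48.4 CPM. In Rspo1-negative cells the 3 values were 36.4, 39.1 and 22.3 CPM. The mean difference between passages 10 and 5 was -0.52 ± 0.16 (SD, n = 3 groups), and the libraries of the 2 passages overlapped because the Rspo1-negative library of passage 5 was low. Trp53inp1 encodes a stress-induced nuclear protein that promotes p53 activity and autophagy. Its levels were 170.0, 133 and 81.9 CPM in untreated cells, 134, 109 and 75.5 CPM in Rspo1-positive cells and 64.2, 59.5 and 27.3 CPM in Rspo1-negative cells. The mean difference was -1.04 ± 0.21 (SD, n = 3 groups), and again the 2 passages overlapped through the low Rspo1-negative library of passage 5.

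To show what lies upstream of 3 of these genes, the sequence just before the annotated gene start is printed below. It is from RefSeq on GRCm38.p6 and reads in the direction of transcription. Cdkn1a and Ccng1 were among the 3 members with the widest passage difference, and Mdm2 had the narrowest. Capitals mark each match to the p53 half-site consensus, a pattern of 10 bases that reads the same on both strands; a full site was counted as a pair of matches at most 13 bases apart.
Cdkn1a, chr17:29090729-29090975, plus strand: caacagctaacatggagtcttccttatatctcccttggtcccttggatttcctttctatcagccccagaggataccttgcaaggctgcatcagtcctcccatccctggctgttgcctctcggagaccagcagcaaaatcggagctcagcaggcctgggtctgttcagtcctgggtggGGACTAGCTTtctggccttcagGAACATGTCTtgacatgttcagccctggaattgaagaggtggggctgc
Mdm2, chr10:117710759-117711008, minus strand: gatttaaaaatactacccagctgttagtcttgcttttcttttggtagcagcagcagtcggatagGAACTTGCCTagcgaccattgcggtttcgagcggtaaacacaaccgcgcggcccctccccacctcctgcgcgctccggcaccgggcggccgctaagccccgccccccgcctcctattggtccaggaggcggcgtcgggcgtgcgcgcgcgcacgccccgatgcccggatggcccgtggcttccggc
Ccng1, chr11:40755312-40755536, minus strand: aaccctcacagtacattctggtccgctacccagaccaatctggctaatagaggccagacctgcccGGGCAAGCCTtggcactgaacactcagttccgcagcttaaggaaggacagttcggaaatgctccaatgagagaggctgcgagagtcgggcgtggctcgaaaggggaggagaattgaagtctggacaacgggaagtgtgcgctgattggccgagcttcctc
The windows searched were the 250 bases before the start of a RefSeq transcript, and the 50 bases after the start were not searched; 8 of the 10 members had at least 1 window. The Cdkn1a window at chr17:29090729-29090978 held GGACTAGCTT at 73 bases and GAACATGTCT at 51 bases before its start, which together make a full site. Mdm2 held GAACTTGCCT at 186 bases, Ccng1 held GGGCAAGCCT at 185 bases and Aen held GGGCTTGTCC at 121 bases before the start. A further Cdkn1a window, at the start of another transcript (chr17:29093519-29093768), held no match, and neither did a further Aen window (chr7:78895677-78895926). Phlda3, Sesn2, Bbc3 and Eda2r held no match in their windows. A half-site match stood in 7.12% of all 32817 promoter windows and a full site in 0.064% of them, against 4 and 1 of the members' 12 windows. A match describes the letters only and shows no binding.

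The next 4 members act in cell death and survival signalling. Eda2r encodes a receptor of the tumour necrosis factor receptor family. It was measured at 39.9, 26.6 and 8.55 CPM at passages 5, 6 and 10 in untreated cells, at 29.8, 17.5 and 9.57 CPM in Rspo1-negative cells and at 38.2, 27.3 and 15.7 CPM in Rspo1-positive cells. Its 3 libraries of passage 10 lay below all 6 earlier ones, with a mean difference from passage 5 of -1.71 ± 0.47 (SD, n = 3 groups), and 0.723% of genes were lower still.

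Bbc3 encodes PUMA, a pro-apoptotic protein of the Bcl-2 family, and was the member with the fewest reads, with counts of 84 to 247 per library. Its level was 5.05, 5.92 and 2.5 CPM in untreated cells, 6.57, 10.1 and 3.77 CPM in Rspo1-negative cells and 4.73, 7.76 and 2.35 CPM in Rspo1-positive cells. It was the member that was higher at passage 6 than at passage 5 in all 3 groups, by 0.52 ± 0.25, before a passage 10 level that was lower than that of passage 6 by 1.44 ± 0.24 (both log2, SD, n = 3 groups). Aen encodes a nuclease that takes part in apoptosis. It was at 87.3, 46.6 and 44.0 CPM in untreated cells, at 75.2, 64.8 and 42.8 CPM in Rspo1-negative cells and at 72.8, 69.3 and 51.7 CPM in Rspo1-positive cells. The passage 10 libraries were below those of passage 5, but most of the difference came by passage 6 in untreated cells and after passage 6 in the others.

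Phlda3 encodes a small membrane-binding protein that restrains the kinase Akt. Its levels were 90.4, 73.4 and 33.5 CPM at passages 5, 6 and 10 in untreated cells, 139, 112 and 74.8 CPM in Rspo1-negative cells and 74.1, 88.3 and 47.9 CPM in Rspo1-positive cells. Rspo1-negative cells were the highest of the 3 groups at every passage, and at passage 10 they stood about where Rspo1-positive cells stood at passage 5. The mean difference between passages 10 and 5 was -0.99 ± 0.41 (SD, n = 3 groups).

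The last pair acts on metabolism and RNA. Sesn2 encodes sestrin 2, a stress-induced inhibitor of the growth kinase complex mTORC1 that is also a target of Atf4. Levels of Sesn2 were 45.5, 28.7 and 15.5 CPM in untreated cells, 42.6, 39.4 and 23.6 CPM in Rspo1-negative cells and 34.9, 36.6 and 18.6 CPM in Rspo1-positive cells. The difference lay mainly after passage 6, at -0.87 ± 0.12, against -0.24 ± 0.38 between passages 5 and 6 (SD, n = 3 groups). Zmat3 encodes a zinc finger protein that binds RNA. It had 94.2, 75.2 and 46.0 CPM in untreated cells, 70.9, 70.8 and 50.1 CPM in Rspo1-negative cells and 98.2, 77.4 and 58.9 CPM in Rspo1-positive cells. All 3 libraries of passage 10 lay below the other 6.

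Set side by side, 6 of the 10 members were lower at passage 6 than at passage 5 in all 3 groups, where 18.3% of all genes were, and 10 of 10 were lower at passage 10 than at passage 6, where 20.8% were. Both steps were downward in all 3 groups for Cdkn1a, Ccng1, Trp53inp1, Aen, Eda2r and Zmat3, a pattern seen in 2.54% of all genes; the first step of Zmat3 in Rspo1-negative cells was 0.00 on the log2 scale. In 7 of the 10, all but Mdm2, Trp53inp1 and Phlda3, each passage 10 library lay below each passage 5 library, and 7.19% of all genes did so. Likewise, the 3 libraries of passage 6 lay below those of passage 5 in 4 of 10 (4.29% of all genes), and those of passage 10 below those of passage 6 in 6 of 10 (6.47%). A difference of 1 log2 unit or more in each group between passages 5 and 10 was found in Cdkn1a, Eda2r and Ccng1 (1.02% of all genes). Nothing is read from these shares either. Untreated cells had the most negative difference between passages 10 and 5 in 8 of the 10, all but Mdm2 and Trp53inp1, with Bbc3 at -0.99 in both untreated and Rspo1-positive cells at the precision given, against 43.6% of the 4628 genes that were lower in all 3 groups. Whether the groups differed in their passage difference was not tested, since each had 1 library per passage.

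**Figure D2:**
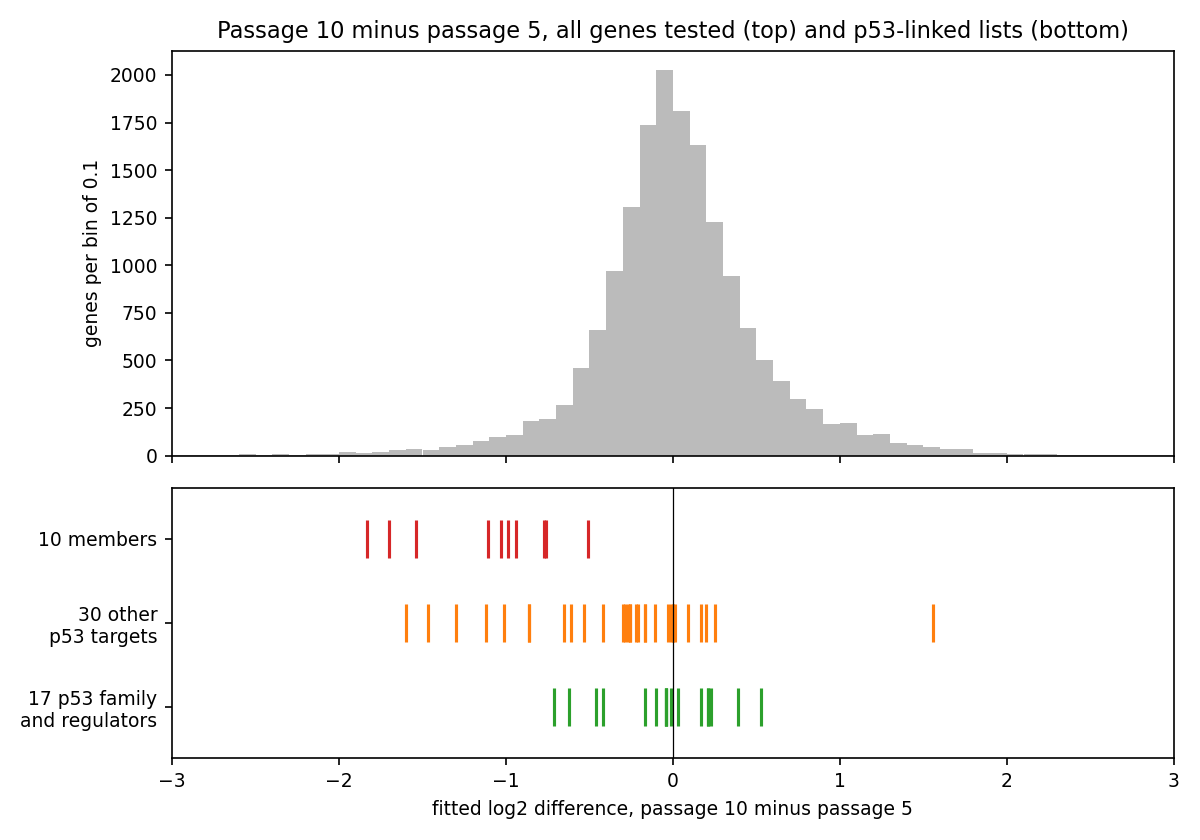
The top panel counts all genes tested by their fitted log2 difference between passages 10 and 5, in bins of 0.1 with 30 genes outside the plotted range, and the bottom panel marks each of the 10 members, 30 other p53 targets and 17 p53 family and regulator genes on the same axis. The members lie between -1.83 and -0.51, the other targets between -1.60 and 1.56 and the regulators between -0.71 and 0.53.

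The other p53 targets spread more widely. Of 30 further genes known as p53 targets, 19 were lower at passage 10 than at passage 5 in all 3 groups, 3 were higher and 8 were mixed, with a median of -0.26. Of all genes, 27.2% were lower and 29.1% higher in all 3 groups. Gdf15, a stress-induced secreted factor, was at 6.19, 2.81 and 1.64 CPM at passages 5, 6 and 10 in untreated cells, 8.30, 8.35 and 3.35 CPM in Rspo1-negative cells and 10.2, 9.58 and 4.51 CPM in Rspo1-positive cells. Dram1, a lysosomal regulator of autophagy, ran the other way, with 4.15, 22.2 and 14.7 CPM in untreated cells, 22.8, 62.7 and 72.2 CPM in Rspo1-negative cells and 35.2, 79.1 and 87.4 CPM in Rspo1-positive cells. Btg2, an antiproliferative factor, had a fitted difference of -1.30, and Bax, a pore-forming protein of apoptosis, had -0.65. Sesn1 and Ddb2, the other two targets that were higher in all 3 groups, had 0.25 and 0.20. These 6 genes were picked as examples after their values were seen.

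**Figure D3:**
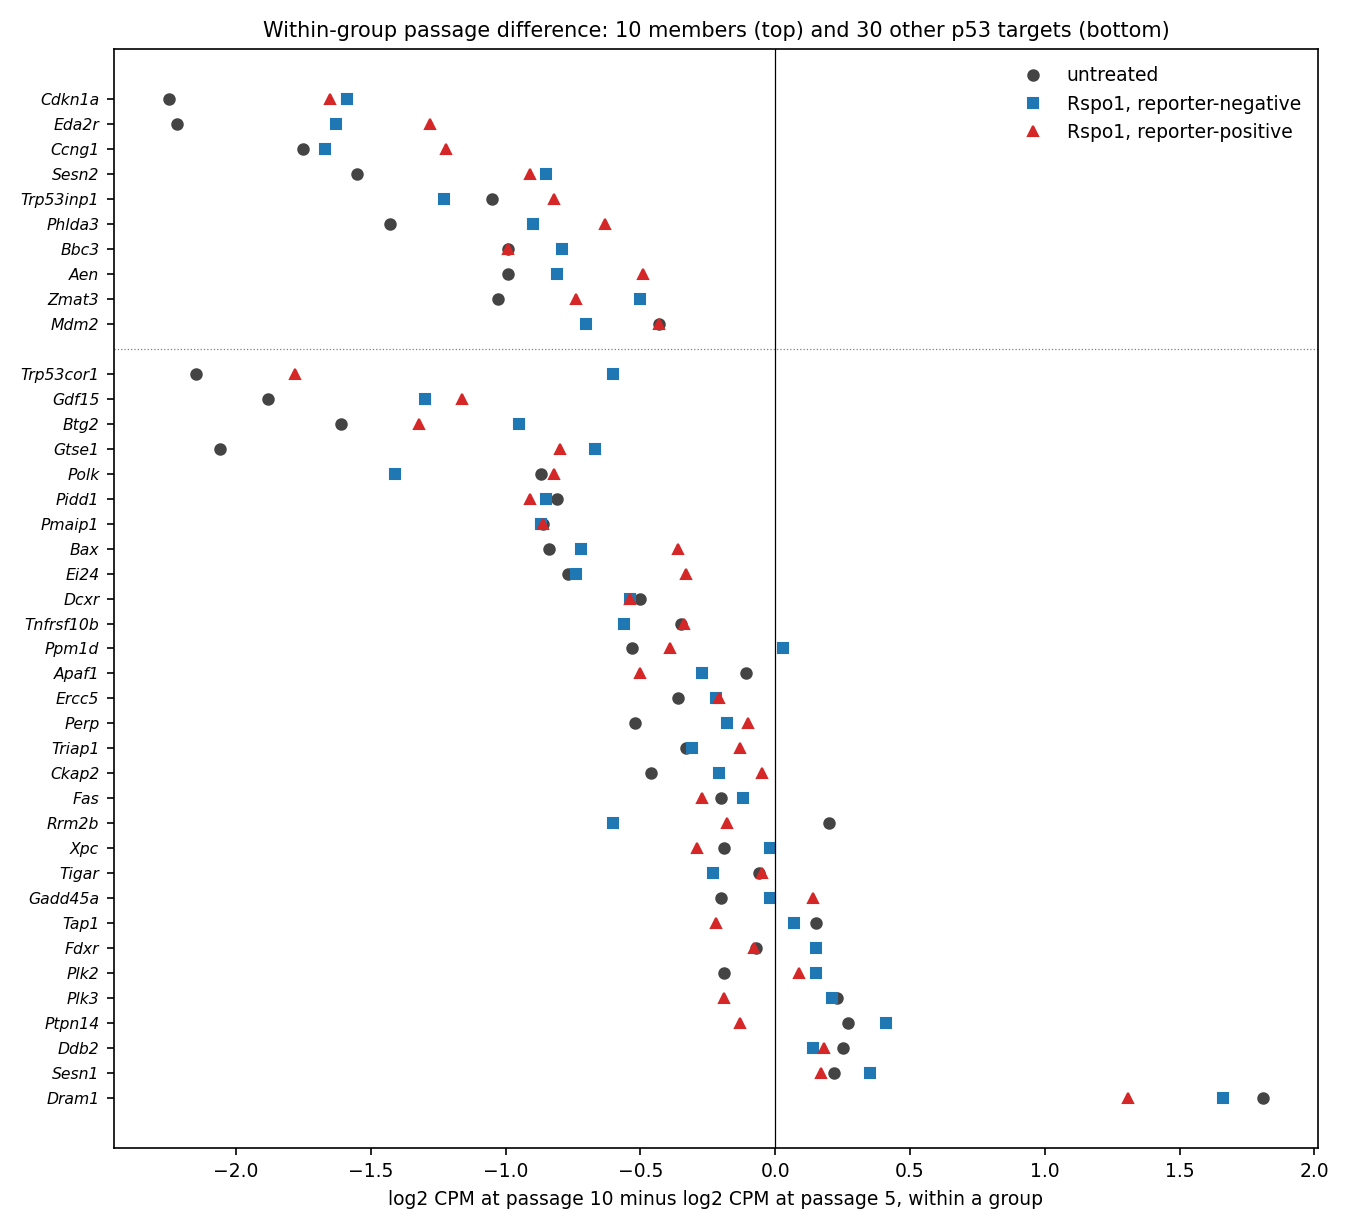
Each row is 1 gene, with the 10 members above the dotted line and 30 other p53 targets below it, and each point is log2 CPM at passage 10 minus log2 CPM at passage 5 within 1 group. All 30 points of the members lie left of 0, while Dram1, Sesn1 and Ddb2 lie right of 0 in all groups.

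The RNA of the p53 gene itself did not follow this pattern. Trp53, the gene for p53, was at 63.8, 74.4 and 65.7 CPM at passages 5, 6 and 10 in untreated cells, at 87.2, 82.0 and 83.2 CPM in Rspo1-negative cells and at 96.7, 116 and 89.8 CPM in Rspo1-positive cells. Its mean difference between passages 10 and 5 was -0.04 ± 0.08 (SD, n = 3 groups), lower in 2 of the groups. Of 17 p53 family and regulator genes, 5 were lower in all 3 groups, 3 were higher and 9 were mixed, with a median of -0.04. Among 6 other inhibitors of cyclin-dependent kinases, 1 was lower and 1 higher in all 3 groups. Beside both lists, 27.2% of all genes were lower and 29.1% higher. Cdkn1b, which encodes p27, had -0.06 ± 0.09 (SD, n = 3 groups).

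Other gene groups also differed with passage in the same libraries. Among all genes, 27.2% were lower and 29.1% higher in all 3 groups between passages 5 and 10. These shares were 18.3% and 17.2% from passage 5 to 6, and 20.8% in each direction from passage 6 to 10. Of 10 proliferation genes, 7 were higher at passage 10 than at passage 5 in all 3 groups and 1 was lower, with a median of 0.45, and Mki67 was higher by 0.91 ± 0.38 (SD, n = 3 groups). The steps ran in opposite directions: from passage 5 to 6, 8 of these genes were higher in all 3 groups and 0 lower, with a median of 1.04, and from passage 6 to 10, 5 were lower and 0 higher, with a median of -0.59. Mki67 had 1.22 ± 0.35 in the first step and -0.32 ± 0.56 in the second, where it was lower in 2 groups (SD, n = 3 groups). Of 10 genes that respond to tissue dissociation, 8 were lower in all 3 groups, with a median of -0.81, and Fosb, Egr1 and Fos had -1.55, -1.41 and -1.13. This list had a median of -0.65 from passage 5 to 6, with 8 lower in all 3 groups, and of 0.10 from passage 6 to 10, with 0 lower. Of 8 genes of the integrated stress response, Sesn2 included, 5 were lower and 2 were higher, with a median of -0.54. The separate medians of this list were -0.45 from passage 5 to 6 and 0.06 from passage 6 to 10. Of the markers of other cell types, Ttr and Apoa1 of the hepatocyte list were lower in all 3 groups, and Alb was higher by 0.52. Cd68, the only leukocyte-list gene that passed the filter, was also lower in all 3 groups. Axin2 was higher by 1.54 ± 0.55 (SD, n = 3 groups), at 1.32 CPM at passage 5 and 5.96 CPM at passage 10 in untreated cells. The part of all these genes in the members' values was not tested.

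Per length of transcript, by FPKM, Cdkn1a and Ccng1 led in untreated cells, at 77.8 ± 52.4 and 77.5 ± 40.3 FPKM (SD, n = 3). They were followed by Phlda3 at 45.1 ± 20.1, Trp53inp1 at 23.3 ± 8.07 and Mdm2 at 16.9 ± 3.04 FPKM. Aen, Zmat3, Sesn2, Eda2r and Bbc3 came next, from 11.8 down to 2.44 FPKM. Each neighbouring pair in this order overlapped between libraries, judged across passages and not within a library, as in the other groups below. Within the untreated libraries of passages 5, 6 and 10, Phlda3 stood above Trp53inp1 each time, at 62.1, 50.2 and 22.9 against 30.9, 24.1 and 14.8 FPKM. Cdkn1a and Ccng1 changed order between these libraries. In Rspo1-negative cells Phlda3 stood next to Cdkn1a, at 76.7 ± 24.3 and 78.9 ± 41.2 FPKM, and Trp53inp1 stood in the seventh place at 9.38 ± 3.85 FPKM, with a gap between libraries of neighbours only from Ccng1 to Aen. In Rspo1-positive cells Ccng1 led at 67.9 ± 27.1 FPKM, and neighbours did not overlap from Phlda3 to Trp53inp1 and from Mdm2 to Aen.

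The first comparison between groups asked how the Axin2-reporter cells under Rspo1 differed from cells that saw no Rspo1. None of the members passed the test. With p-values of edgeR's quasi-likelihood F-test adjusted by the Benjamini-Hochberg method, 0 of 10 differed between Rspo1-positive and untreated cells at an adjusted p of 0.05, where 5.21% of all genes did; 0 had an unadjusted p under 0.05, and DESeq2 called 0. With passage as a block, 13.2% of all genes and again 0 members passed. The log2 differences ran from -0.46 (SE 0.56) for Cdkn1a, at 120 ± 61.4 against 164 ± 110.3 CPM (SD, n = 3), to 0.14 (SE 0.48) for Bbc3. Cdkn1a was lower in Rspo1-positive cells at each passage, by 0.63, 0.36 and 0.03 on the log2 scale at passages 5, 6 and 10. Its fitted value depended on single libraries, without a call in any of these fits: it was 0.16 without the untreated library of passage 5, -0.13 without the Rspo1-positive library of passage 10, -0.88 without the Rspo1-positive library of passage 5 and -0.86 without the untreated library of passage 10. The standard errors of Cdkn1a, Eda2r and Ccng1, at 0.56, 0.53 and 0.49, were the widest, and these were also the members with the widest passage differences.

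RNA of the p53 gene Trp53 and of some listed pathway genes did differ in that comparison. Trp53 rose by 0.57 (SE 0.13, edgeR adjusted p = 0.0295), higher in 3 of 3 passages and without overlap. It was called in 8 of 13 alternative fits, and in the authors' deposited DESeq2 table at 0.57 (adjusted p = 0.000522). The call was lost without the untreated library of passage 5 or 10 or the Rspo1-positive library of passage 5 or 6, with edgeR adjusted p up to 0.155. It was also lost in a fit of the 6 libraries alone (edgeR adjusted p = 0.0632). Of the 30 other targets, 4 rose and 2 fell, and of all genes 3.07% rose and 2.13% fell. With passage as a block, 7 rose and 3 fell, beside the 13.2% of all genes. Ckap2 and Gtse1, both proteins of the mitotic spindle, rose by 2.46 (edgeR adjusted p = 0.005) and 2.20 (adjusted p = 0.0336), Pidd1, a scaffold of caspase activation, rose by 1.46 (adjusted p = 0.0383), and Perp, a desmosome component, fell by 0.72 (adjusted p = 0.0298). Of the regulators, Chek1 and Chek2, checkpoint kinases, rose by 1.89 (edgeR adjusted p = 0.00425) and 0.95 (adjusted p = 0.0061) beside Trp53. Blocked by passage, 4 of 17 regulators rose and 0 fell, beside the 13.2% of all genes. Of the other kinase inhibitors, Cdkn2c rose by 1.71 and Cdkn2b fell by 0.55 (edgeR adjusted p = 0.0333 and 0.0337). All 10 proliferation genes rose, Mki67 by 3.55 (SE 0.46, edgeR adjusted p = 0.00176), as did Axin2, by 5.13 (SE 0.61, adjusted p = 0.00131). The part of the proliferation genes in these differences was not tested.

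**Figure D4:**
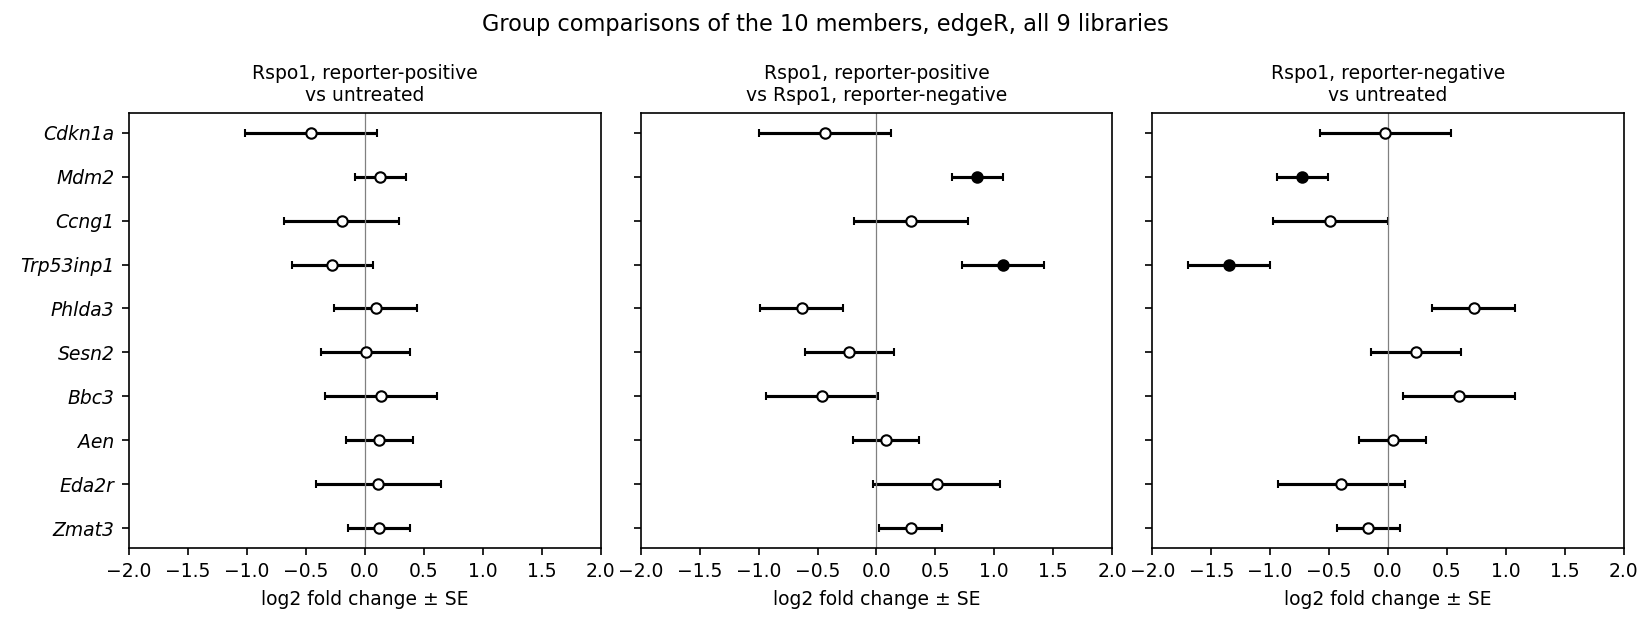
Points are edgeR log2 fold changes of the 10 members with their standard errors as bars, in 3 panels for the 3 comparisons of groups, and filled points have an adjusted p under 0.05. Mdm2 and Trp53inp1 are filled in both comparisons that involve Rspo1-negative cells, and no point is filled for Rspo1-positive against untreated cells.

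The second comparison set the reporter-positive cells against the reporter-negative cells of the same treatment, and 2 members rose. Mdm2 was at 59.1 ± 9.27 CPM in Rspo1-positive and 32.6 ± 8.99 CPM in Rspo1-negative cells (SD, n = 3). The difference was 0.86 (SE 0.22, edgeR adjusted p = 0.0184), with the lowest Rspo1-positive library, at 48.4 CPM, above the highest Rspo1-negative one, at 39.1 CPM. Trp53inp1 was at 106 ± 29.2 against 50.3 ± 20.1 CPM, a difference of 1.07 (SE 0.35, edgeR adjusted p = 0.0457), again without overlap. These 2 of 10 stand beside 24.3% of all genes, 14.6% higher and 9.78% lower. This fit leaves passage in the spread, and the members were chosen on passage, so nothing is read from the 2 shares. The libraries of these groups did not overlap in 45.2% of all genes and in 2 of the 10 members. Overlap was judged across passages, on which the members were chosen, so nothing is read from this count. With passage as a block in the fit, 6 of 10 passed, beside 38.9% of all genes. Phlda3, Bbc3 and Cdkn1a were then lower in Rspo1-positive cells, by -0.63, -0.50 and -0.45 (edgeR adjusted p = 0.00937, 0.045 and 0.0269), and Eda2r was higher by 0.58 (adjusted p = 0.0248).

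Mdm2 and Trp53inp1 also differed when Rspo1-negative cells were compared with untreated ones. Mdm2 fell from 54.0 ± 9.56 to 32.6 ± 8.99 CPM (SD, n = 3), by 0.73 on the log2 scale (SE 0.22, edgeR adjusted p = 0.037). Trp53inp1 fell from 128 ± 44.2 to 50.3 ± 20.1 CPM, by 1.35 (SE 0.35, edgeR adjusted p = 0.0211). Neither gene overlapped between the groups, and both were lower at 3 of 3 passages. In this comparison 21.9% of all genes were called, 8% higher and 13.9% lower, and 36.3% had groups that did not overlap, against 2 of the 10 members for either. As in the previous comparison, passage stayed in the spread, so nothing is read from these shares. Phlda3, at 109 ± 32.4 against 65.7 ± 29.2 CPM, differed by 0.73 but did not pass (SE 0.35, edgeR adjusted p = 0.166), and Cdkn1a differed by -0.02 (SE 0.56). With passage as a block, 5 of 10 passed, beside 35.5% of all genes, which added Phlda3 at 0.79, Bbc3 at 0.58 and Ccng1 at -0.48 (edgeR adjusted p = 0.00327, 0.0282 and 0.0328). This comparison and the previous one share the Rspo1-negative libraries, so their calls are not independent of each other.

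The group differences that involve Rspo1-negative cells varied with the base composition of the transcripts. Over all genes, the median log2 difference between Rspo1-negative and untreated cells was -0.65 in the lowest of 5 equal classes of GC content (23 to 44%) and 0.26 in the highest (55.6 to 83.1%). Between Rspo1-positive and Rspo1-negative cells it was 0.65 and -0.29, and between Rspo1-positive and untreated cells -0.02 in both. Trp53inp1 has the lowest GC content of the members, at 38.8%, Mdm2 has 46.2%, and Bbc3 and Phlda3 have the highest, at 65.2% and 62.6%. With an offset for GC content and length in the fit, 0 of 10 members passed edgeR's test in either comparison, where 8.53% and 9.58% of all genes passed. In each, 1 member had an unadjusted p under 0.05. DESeq2, without the offset, called 2 members in each. In edgeR's fit with the offset, Mdm2 differed by 0.76 and -0.67 (edgeR adjusted p = 0.0524 and 0.0735), close to its values without the offset. Trp53inp1 differed by 0.32 and -0.58 (edgeR adjusted p = 0.536 and 0.264), less than before. With the passage block and the offset together, where 23.4% and 23.1% of all genes passed, both genes passed in both comparisons, Mdm2 at 0.78 and -0.70 (edgeR adjusted p = 0.00496 and 0.00744) and Trp53inp1 at 0.34 and -0.58 (adjusted p = 0.0333 and 0.00324). The members called by the block alone did not pass in that fit. Between Rspo1-positive and Rspo1-negative cells Phlda3, Bbc3, Cdkn1a and Eda2r then differed by -0.13, -0.04, -0.04 and -0.05 (edgeR adjusted p = 0.475, 0.874, 0.819 and 0.859). Between Rspo1-negative and untreated cells Phlda3, Bbc3 and Ccng1 differed by 0.32, 0.09 and -0.01 (edgeR adjusted p = 0.099, 0.719 and 0.963).

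**Figure D5:**
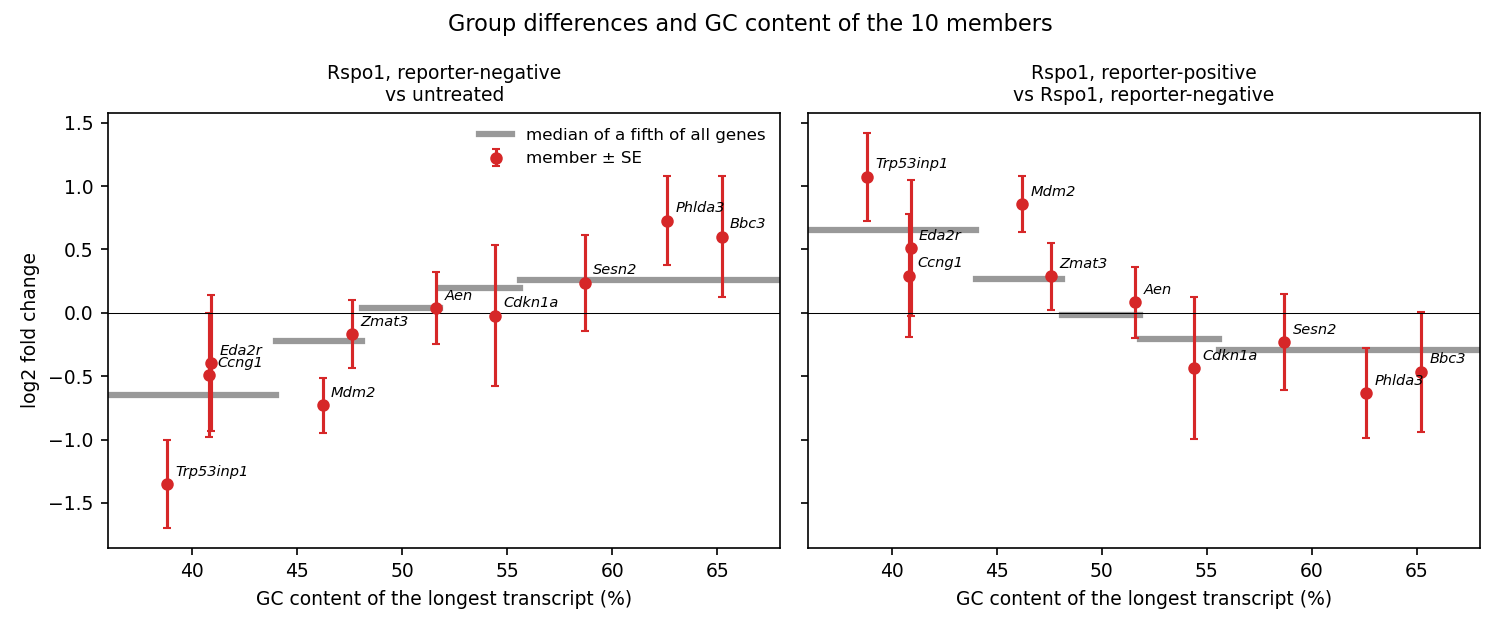
Red points are the log2 fold changes of the members (bars, SE) against the GC content of their longest annotated transcript, for Rspo1-negative against untreated cells (left) and Rspo1-positive against Rspo1-negative cells (right), and grey bars are the medians of all genes in 5 classes of GC content, clipped to the plotted range. Trp53inp1 and Mdm2 lie below 0 on the left and above 0 on the right and Phlda3 and Bbc3 the other way round, each on the same side as the grey bar of its GC class and farther from 0 than it.

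Leaving out single libraries also ended calls. The count of members called ranged from 0 to 2 in both comparisons. In the second, no member was called without the Rspo1-positive library of passage 5 or of passage 6 or the Rspo1-negative library of passage 10. In the third, none was called without the untreated library of passage 5 or the Rspo1-negative library of passage 10, and Mdm2 also lost its call without the Rspo1-negative library of passage 5. Trp53inp1 in the second kept its call only without the Rspo1-positive library of passage 10. Adjusted p over these fits reached 0.0702 and 0.132 for Mdm2 and 0.152 and 0.0728 for Trp53inp1. The direction was kept in each of these fits.

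The rest of the pathway gave calls in both directions. Between Rspo1-positive and Rspo1-negative cells, 4 of 30 other targets rose and 1 fell, beside 14.6% of all genes higher and 9.78% lower. The share called in this fit was 16.7%, not above the 24.3% of all genes. With passage as a block 8 rose and 2 fell, or 33.3% against 38.9% of all genes. With the offset for GC content and length 2 rose and 0 fell (6.67% against 8.53%), and with both 8 rose and 1 fell (30% against 23.4%). Among those called were Rrm2b, a subunit of ribonucleotide reductase, at 1.10, Apaf1, the core of the apoptosome, at 0.93 and Ckap2 at 1.83, with the carbonyl reductase Dcxr at -1.13 (edgeR adjusted p = 0.00507, 0.00471, 0.00866 and 0.00468). Of 17 regulators 7 rose and 1 fell, beside the same 24.3%, with 4 and 2 under the offset, among them Atm and Atr, kinases that sense DNA damage, at 1.60 and 1.45, Chek1 at 1.46 and the acetyltransferase Ep300 at 1.03 (edgeR adjusted p = 0.00604, 0.0057, 0.00703 and 0.00788). With the offset, Rrm2b, Apaf1, Dcxr, Atm and Atr did not pass (edgeR adjusted p = 0.123, 0.0634, 0.0973, 0.0847 and 0.103). Blocked by passage, 8 of the 17 regulators rose and 2 fell, beside 38.9% of all genes. Cdkn1c, which encodes p57, fell by 1.34 (edgeR adjusted p = 0.0113), and did not pass with the offset (adjusted p = 0.102). Trp53 differed by 0.26 without passing (edgeR adjusted p = 0.166), and passed once GC content and length entered as an offset, at 0.56 (adjusted p = 0.0244). Mki67 rose by 3.15 (edgeR adjusted p = 0.00205), with 6 of 10 proliferation genes called (9 with the block), and Axin2 differed by 0.26 (adjusted p = 0.733).

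Between Rspo1-negative and untreated cells, 2 of 30 other targets rose and 4 fell, beside 8% of all genes higher and 13.9% lower. The share called depended on the fit, and in this one it was 20%, close to the 21.9% of all genes. With passage as a block 11 rose and 6 fell, or 56.7% against 35.5% of all genes. With the offset 1 rose and 3 fell (13.3% against 9.58%), and with both 5 rose and 7 fell (40% against 23.1%). Tap1, a peptide transporter of antigen presentation, rose by 0.89, and Rrm2b, Apaf1 and Pmaip1, which encodes the pro-apoptotic protein NOXA, fell by 1.29, 0.72 and 1.20 (edgeR adjusted p = 0.00743, 0.00229, 0.0133 and 0.0235). Of 17 regulators 2 rose and 6 fell, beside the same 21.9%, with 2 and 2 under the offset and 4 and 2 under block and offset, with Chek2 and the ribosomal protein gene Rpl11 at 0.73 and 0.74 and Ep300 and Atr at -1.22 and -1.06 (edgeR adjusted p = 0.0105, 0.0151, 0.00385 and 0.02). With the offset, Apaf1, Pmaip1, Rpl11 and Atr did not pass (edgeR adjusted p = 0.21, 0.0892, 0.126 and 0.537). Under the block alone, 3 of the 17 regulators rose and 7 fell, beside 35.5% of all genes. Cdkn1b fell by 0.49 (edgeR adjusted p = 0.0145), but the offset for GC content and length left a difference of -0.04 (adjusted p = 0.869), and Cdkn1c rose by 0.94 (adjusted p = 0.0442), with 0.50 under the offset (adjusted p = 0.326). Blocked by passage, 2 of the 6 other kinase inhibitors rose and 1 fell here, against 1 and 1 without the block, and 1 rose and 1 fell in the previous comparison, against 0 and 1. Trp53 differed by 0.31 and Mki67 by 0.39 without passing (edgeR adjusted p = 0.112 and 0.549), 5 of 10 proliferation genes rose (9 with the block and 3 with the offset), and Axin2 rose by 4.87 (adjusted p = 0.00115).

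The authors' deposited tables, one for each comparison, called 0 of the 10 members for Rspo1-positive against untreated cells, where those tables called 14.7% of genes. For Rspo1-positive against Rspo1-negative cells the authors' deposited table called 7 of 10, all but Sesn2, Aen and Zmat3, and 45.8% of genes. For Rspo1-negative against untreated cells the authors' deposited table called Mdm2, Ccng1, Trp53inp1 and Phlda3, which are 4 of 10, and 29.3% of genes. In the authors' deposited tables Cdkn1a had log2 fold changes of -0.34, -0.47 and 0.12 in this order, of which the second was called.

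Passage separated most members more than group did. The SD between the 3 passage means exceeded that between the 3 group means for 8 of the 10, against 32.6% of all genes, which is again a description since passage chose the members. For Cdkn1a they were 0.92 and 0.23 on the log2 CPM scale. Mdm2, at 0.27 and 0.48, and Trp53inp1, at 0.54 and 0.74, were the exceptions.

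Across the 9 libraries, the genes with the profile most like that of Cdkn1a were found by the root mean square difference of log2 CPM, each centred on its own mean, among 11660 genes with a mean log2 CPM above 2. Jcad, a junction protein gene, came first at 0.20, followed by Tnfsf9 at 0.21, Gm45774 at 0.25, the metallothionein genes Mt1 at 0.26 and Mt2 at 0.29, and AC167363.2 at 0.29. Jcad was at 62.4, 31.5 and 15.3 CPM at passages 5, 6 and 10 in untreated cells. AC167363.2 is annotated antisense to Cdkn1a and shares 273 exon bases with it, and Gm45774 shares 432 exon bases with Mt2 on the opposite strand. The strand setting of the counting is not given in the sources used here, so reads of these pairs may not be separable. Among the members, Sesn2 ranked 15, Ccng1 21, Eda2r 43, Phlda3 62, Zmat3 154, Aen 168 and Bbc3 223 by this measure, while Mdm2 ranked 4336 and Trp53inp1 4826.

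On GRCm38, by the GENCODE annotation, Cdkn1a (ENSMUSG00000023067) lies at chr17:29090976-29100727, Mdm2 (ENSMUSG00000020184) at chr10:117688875-117710758 and Ccng1 (ENSMUSG00000020326) at chr11:40748552-40755311. Trp53inp1 (ENSMUSG00000028211) lies at chr4:11156431-11174379, Phlda3 (ENSMUSG00000041801) at chr1:135766119-135769136 and Sesn2 (ENSMUSG00000028893) at chr4:132492032-132510501. Bbc3 (ENSMUSG00000002083) lies at chr7:16308393-16318205 and Aen (ENSMUSG00000030609) at chr7:78895854-78911209. Eda2r (ENSMUSG00000034457) lies at chrX:97333840-97377216 and Zmat3 (ENSMUSG00000027663) at chr3:32334792-32366014. All 10 are annotated as protein-coding, and Cdkn1a is the one member that shares exon bases with another gene.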

How the data were processed

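RNA was sequenced as single-end 75 bp reads from 100 ng of total RNA, per the labels' protocols. The submitters' processing notes name Trimmomatic 0.35, FastQC 0.11.2, STAR 2.5.1b, featureCounts, DESeq2 and GRCm38. The strand setting, the gene annotation and the design formula of DESeq2 are not given in the sources used here. The authors deposited a raw count and an FPKM value per gene for each library, per the file headers. Columns numbered 4 belong to replicate 3, as given by the sample of each file. The authors' deposited tables of the 3 comparisons hold a mean normalised signal, a log2 fold change, its standard error, a test score and p-values per gene.

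The members and gene lists were chosen with earlier results of these data known. Group tests used edgeR 4.0.16 (with limma 3.58.1, R 4.3.3) on the raw counts, with DESeq2 1.42.0 as an alternative and Python 3.11.15 for promoters and figures. Genes were kept by edgeR's filterByExpr (minimum count 10, minimum total count 15) and scaling was by TMM. A single quasi-likelihood fit on group held all 9 libraries, with Benjamini-Hochberg adjustment over 17011 genes and a threshold of 0.05. The standard error is the size of the log2 fold change divided by the square root of F. Log2 CPM used a prior count of 2. Passage differences were taken within each group, and fitted ones from a model of group and passage, with no test. FPKM served only to rank levels between genes and entered no test. The group fit was also run on simulated counts, drawn for each library separately without a passage or GC effect. That run cannot show how the fit behaves where libraries share a passage or differ by GC content.

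Libraries with the same number share a passage, per the labels. After removal of group means, log2 CPM correlated at 0.123 to 0.573 in the 9 pairs of the same passage and at -0.476 to 0.0826 in the 18 other pairs, so the numbers pair the libraries. Blocked values stand beside results they change.

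Replicates differed by more than counting noise, with a chi-square per gene of 54.4 to 518 that includes passage. Counting error bears most on Bbc3, with 84 to 247 counts. Named in full are the 10 members. From the lists, genes past the threshold are named, at most 4 per list and comparison by smallest adjusted p, and Trp53, Cdkn1b, Mki67 and Axin2 always. The 6 genes most like Cdkn1a are named by root mean square difference. Ddit3, Pdgfrb, Kdr and Adgre1 were not analysed here. Another duct marker is not reported here.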

Additional observations from a re-analysis of the deposited data

How the results depend on the processing

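Alternatives were upper-quartile scaling, DESeq2, no filter on low counts, passage as a replicate block, an offset for GC content and length, both together, only the 6 libraries compared, and leaving out each library. No result changed direction among those called. Members called between Rspo1-positive and Rspo1-negative cells (2) numbered 1 with upper-quartile scaling, 6 with the replicate block, 0 with the offset, and 0 to 2 without single libraries. Between Rspo1-negative and untreated cells (2) they numbered 1 with upper-quartile scaling, 5 with the replicate block, 0 with the offset, 1 with only 6 libraries, and 0 to 2 without single libraries. Between Rspo1-positive and untreated cells the count was 0 under each alternative. Over all genes, Rspo1-positive against untreated cells gave 886 calls, 1506 with DESeq2, 1446 without the filter, 2247 with the replicate block, 2677 with block and offset, and 390 to 899 without single libraries. Rspo1-positive against Rspo1-negative cells gave 4141, then 6624 with the replicate block, 1451 with the offset, and 2061 to 4068 without single libraries. Rspo1-negative against untreated cells gave 3724, then 6039 with the replicate block, 1629 with the offset, 2299 with only 6 libraries, and 1800 to 3772 without single libraries. In that comparison 36.5% of calls were higher, and 49.5% with upper-quartile scaling. The cause was not tested. All 10 members were lower at passage 10 than at passage 5 in all 3 groups also with upper-quartile scaling, the offset, deposited FPKM and without each group, with medians from -1.15 to -0.89. Bbc3 moved from -0.94 to -1.17 with the offset. Of the single-gene values under alternatives, 563 kept their call or stayed within the spread, 30 lost the call and 12 gained one. With 1 library per group and passage, a passage difference has no replicate within a group.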
